A study of Rattus norvegicus with 20 samples.

Results

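The transcripts of the cytosolic ribosomal proteins were followed in the choroid plexus of 20 female Zucker rats. Members were chosen by symbol and by mean level. A gene id entered when its TPM averaged 10 or more across all 20 libraries and its symbol was Rpl or Rps followed by a digit, Rplp0, Rplp1, Rplp2 or Rpsa, without the Rps6k kinases. TPM is a relative transcript level, corrected for transcript length and scaled to the same total in every library. The rule gave 76 of the 32883 gene ids in the files, carrying 71 symbols. Symbols came from shortened copies of the study's gene tables, which name 2616 of the ids, for the most part the most highly expressed ones. A ribosomal protein with no symbol in these copies may still be expressed, and which ids could be tried was itself set by level. The 76 ids were 42 for proteins of the large (60S) subunit, 28 for the small (40S) subunit and 6 for like-named paralogues (Rps27l, Rpl22l1, Rpl7l1, Rpl35al1 and 2 ids of Rps19l2). Of 47 listed 60S proteins 40 had a member, and of 32 listed 40S proteins 26 had one. Among those without one were Rpl9, Rpl22, Rpl35a, Rpl38, Rpl39, Rplp2, Rps6, Rps14, Rps19, Rps26, Rps29 and Fau, which were not analysed here as members. Every id that matched by symbol also passed the level threshold, the lowest being Rpl7l1 at 41.9 TPM and Rpl7 at 88.5 TPM.

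The rats formed 4 groups in a pair of cohorts, all 16 weeks old and each rat sequenced once. The first cohort held 6 lean rats (+/fa, heterozygous for the leptin receptor mutation fa) and 6 obese rats (fa/fa), none of them injected. The second held 4 lean control rats (+/fa, labelled Lean+VEH), given sesame oil, and 4 obese + TT rats (fa/fa, labelled Obese+TT), given 1 mg testosterone propionate in sesame oil under the skin, 2 times a week for 4 weeks. No group of obese rats received oil alone and no lean rats received testosterone, so genotype and hormone cannot be told apart within the second cohort. Between the cohorts, the injections and anything else that differed between the 2 sets of animals cannot be told apart, nor can testosterone in the obese animals. The lean rats carried 1 fa allele. The study states as a limitation that the estrous cycle was not controlled, and the phase of each rat is not given in the sources used here. Tissue from the lateral and the fourth ventricles was used together, so these sites cannot be told apart. The RNA came from whole tissue, so fewer cells of a type and less RNA per cell cannot be told apart either.

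Every ribosome carries 1 large and 1 small subunit, each built from ribosomal RNA and a fixed set of proteins. Most of these proteins are needed in equal amounts, and their mRNAs are among the most abundant in any growing or secreting cell. Most begin with a C followed by a run of pyrimidines, the terminal oligopyrimidine (TOP) tract, through which the kinase complex mTORC1 controls how strongly they are translated. Translation of such mRNAs can change with no change in their level, and a level is all that was measured here. The choroid plexus epithelium is a secretory tissue that makes cerebrospinal fluid and much of its transthyretin.

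All 10 listed epithelial markers were found, and transthyretin (Ttr) alone took 25.8 to 39.3% of the TPM of a library. A library held 14968 to 16860 genes above 0 TPM. TPM values hold no read counts, so how many reads a value rests on cannot be read from them. Because the TPM of every library sum to the same total, a shift in Ttr moves the level of every other gene. The members' fold changes and calls in each comparison were therefore also computed without Ttr, with a median-of-ratios scaling and from FPKM. FPKM scales fragments to transcript length and library depth. For the other gene lists and the markers, the median of ratios was the only alternative scale. Overlaps of groups for single ids, spread within groups, correlations and the calls shared by both genotypes were computed from TPM only.

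The 76 ids together took 5.14% ± 0.37 (SD, n = 6) of all TPM in the lean rats and 5.46% ± 0.44 (SD, n = 6) in the obese rats. In the injected cohort they took 4.17% ± 0.27 (SD, n = 4) in the lean control rats and 4.08% ± 0.11 (SD, n = 4) in the obese + TT rats. The lean and obese rats overlapped, with 4.53 to 5.53% and 4.85 to 6.03%. The lean control rats, at 3.96 to 4.57%, overlapped with the obese + TT rats, at 4.00 to 4.24%. Of the injected animals only lean control rat 15, at 4.57%, lay above the lowest uninjected one, lean rat 6 at 4.53%. With Ttr left out of the sum the shares were 7.78% ± 0.36 and 8.36% ± 0.49 in the first cohort (SD, n = 6 each) and 5.87% ± 0.39 and 5.61% ± 0.15 in the second (SD, n = 4 each). On this scale the injected rats ended at 6.38% and the uninjected rats began at 7.42%, so the cohorts did not overlap.

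**Figure D1:**
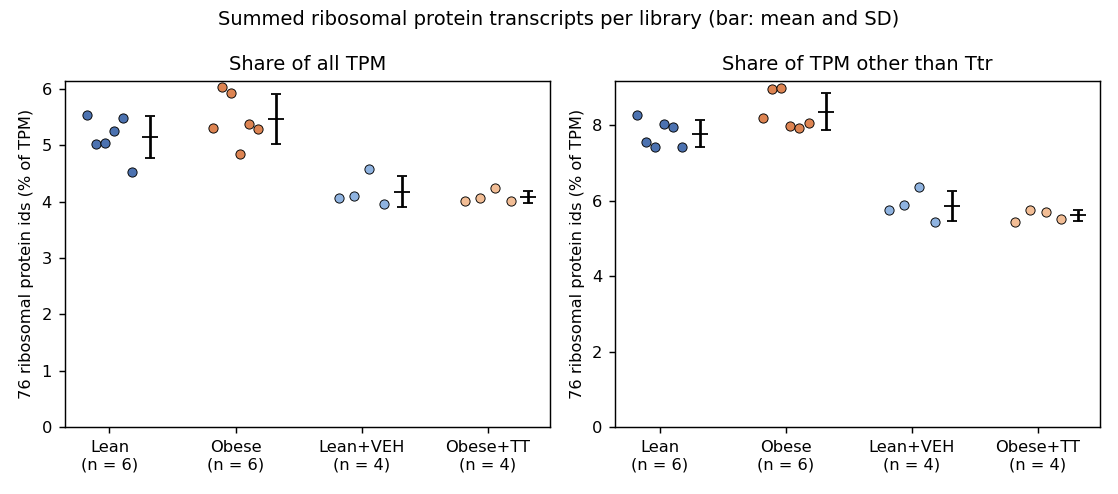
Summed TPM of the 76 ribosomal protein ids per library (points, in percent) in the 4 groups, of all TPM on the left and of TPM other than Ttr on the right; the bar beside each group is its mean and SD. The injected groups lie below the uninjected groups, with means of 4.17 and 4.08% against 5.14 and 5.46% on the left.

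The members' levels spanned 99.2-fold, from Rpl7l1 to Rpl41, which encodes one of the shortest peptides of the ribosome and stood at 4159 TPM over all libraries. The 10 highest, among them Rpl41, Rps27, Rpl37, Rplp1, Rps16, Rps15a, Rpl13a, Rps15 and Rpl27, held 35.4% of the members' TPM. Because the rule used the mean level, these values are a description. The order of the members was much the same in each group, with a Spearman rho of 0.941 to 0.996 between group means across the 76 ids, which share libraries and gene lengths. Within a group the median coefficient of variation was 8.41% in the lean, 8.96% in the obese, 7.73% in the lean control and 6.06% in the obese + TT rats. The members rose and fell together from rat to rat, and the first component of their log2 levels within groups held 43.9% of the variance. Lean rat 6 was low and obese rats 8 and 9 were high for most ids, with median deviations from the mean of -0.08, 0.35 and 0.32 on the log2 scale. Lean rat 6 also had the highest Ttr share of the lean rats, at 39.0%. With Ttr left out, its member share was 7.42%, beside 7.44% in lean rat 3. Obese rats 8 and 9 remained the highest obese rats on that scale, at 8.97 and 9.00%.

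Rpl8, a 60S protein that lies next to the peptidyl transferase centre, departed from this common pattern. Its level in the lean rats had a lowest value of 39.5 TPM, a median of 168.9 and a highest of 189.3. The low end was made by lean rats 1 and 5, at 39.5 and 73.3 TPM. The median deviation over all members was 0.22 and 0.20 on the log2 scale in these 2 libraries, above the mean of all libraries. The obese rats ran from 174.8 to 353.8 TPM with a median of 213.9. The lean control rats had 141.0, 127.9, 137.6 and 160.7 TPM, and the obese + TT rats 145.0, 168.2, 154.0 and 135.2 TPM, a far narrower range. The coefficient of variation was 46.8% in the lean rats, the highest of any member in any group.

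**Figure D2:**
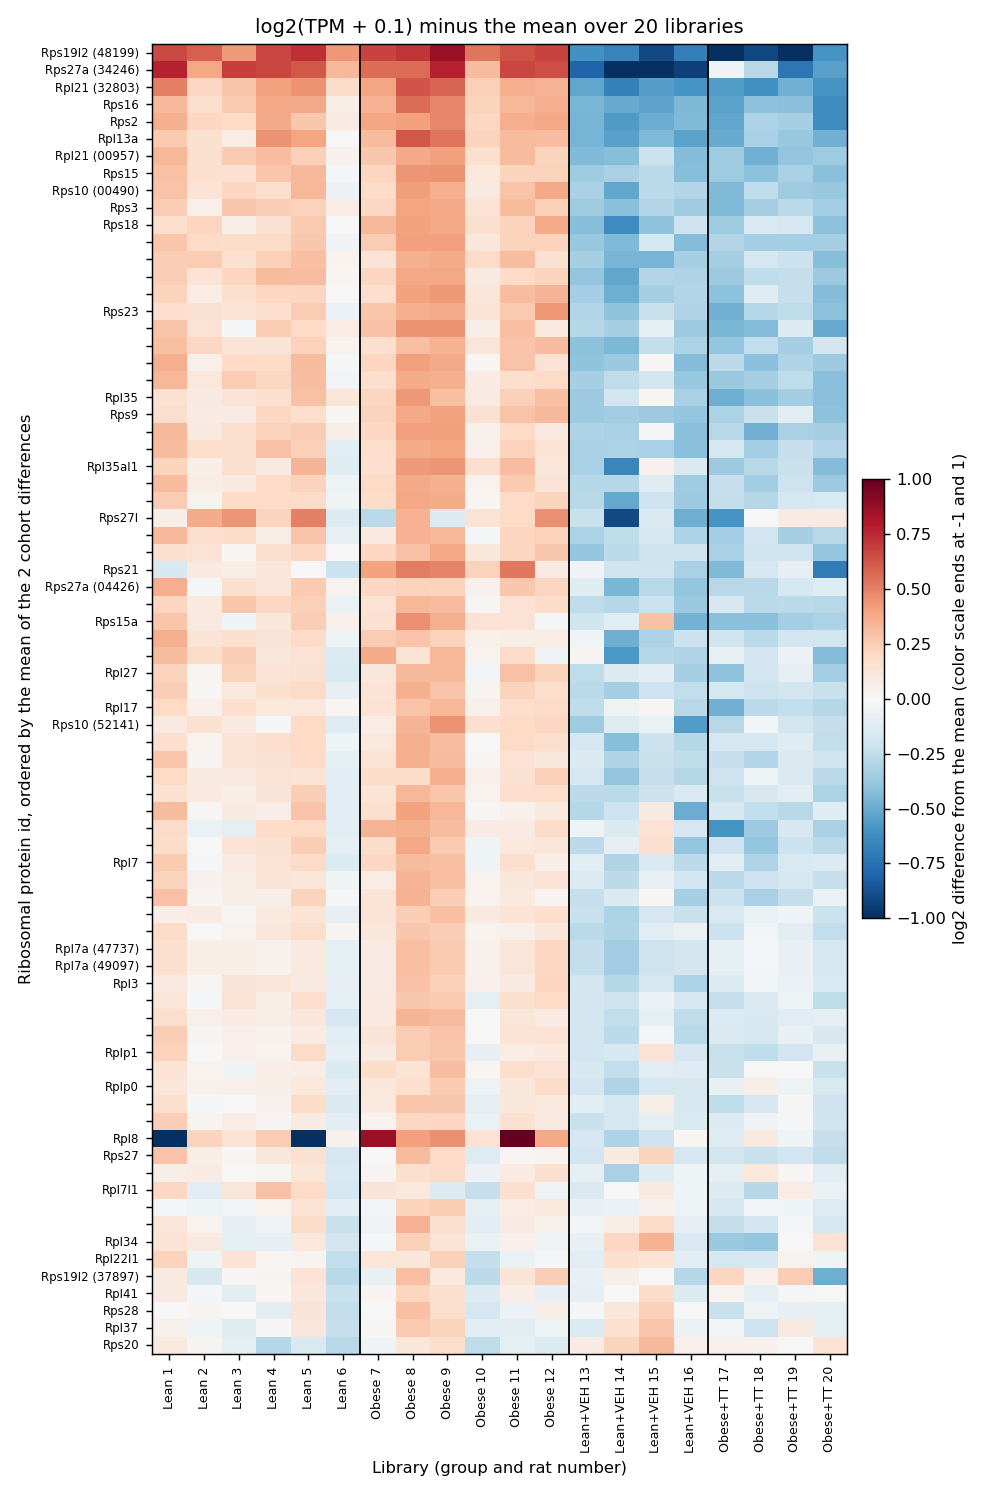
log2(TPM + 0.1) of each of the 76 ids (rows) in each of the 20 libraries (columns), relative to its mean over the libraries and drawn from blue (-1) to red (1), with black lines between groups and rows ordered by the mean of both cohort differences, with names beside the members the text describes. Most rows are red in the 12 uninjected and blue in the 8 injected rats, while the bottom rows, such as Rpl41, Rps28, Rpl37 and Rps20, show little such shift, and Rpl8 is dark blue in lean rats 1 and 5.

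Sequences at the start of the transcript are shown for members with a RefSeq promoter and a single id. They are the 5 with the lowest and the 5 with the highest mean of both log2 fold changes between the cohorts. They show the letters around the annotated start. Each stretch runs 5′ to 3′ on the gene's strand of GRCr8, from 10 bases before the annotated start to 20 bases from the start on, and capitals mark its longest run of C and T. The levels were computed by the authors on Rnor_6.0, and the sequences were matched by symbol only.
Rps16, chr1:92770648-92770677, plus strand: aaaatcggtcggggtggccccaagCTTTCC
Rps2, chr10:14251838-14251867, plus strand: TCTTTTTCTTCgggaaaacacgtgagtctg
Rpl13a, chr1:104748894-104748923, minus strand: TCCTTTCCTaggcggctgccgaagatggcg
Rps15, chr7:10068096-10068125, minus strand: acaccgCTTCCTTTTCCCagcagccgccaa
Rps3, chr1:163195757-163195786, minus strand: TTCagcggcgcgcggcagcaagatggcggt
Rpl34, chr2:221962264-221962293, minus strand: TCCTTTTCCTCTTCCggggacggtgcttag
Rpl22l1, chr2:113683186-113683215, plus strand: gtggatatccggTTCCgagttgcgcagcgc
Rpl41, chr7:1563478-1563507, minus strand: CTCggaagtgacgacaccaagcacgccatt
Rps28, chr7:15311314-15311343, minus strand: ccctgctcacgtgaCTCCTCTCCgctagat
Rpl37, chr2:55942935-55942964, plus strand: ggcgtaCTTTCTCTTCCggtctctttggcc
The first 5 have the lowest means and the last 5 the highest, and opposite signs can cancel in such a mean. The longest run held 6, 11, 9, 12 and 3 bases in the first 5 and 15, 4, 3, 9 and 11 bases in the last 5. Such a run may lie before or after the annotated start, so its length is no measure of a TOP tract. Of the members shown, only Rps15, Rpl34 and Rpl37 had a C followed by at least 4 pyrimidines exactly at the annotated start.

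RefSeq promoters were found for 56 of the 71 symbols, 57 promoters in all out of 33469 in the table. Among those with none there were Rpl15, Rpl23a, Rpl27, Rpl30, Rpl32, Rpl7, Rpl8, Rps19l2, Rps20 and Rps25. A C followed by at least 4 bases that were C or T stood exactly at the annotated start in 18 of the 57 (31.6%), against 2.63% of all promoters. The same pattern began within 10 bases of the start on the transcript strand in 41 (71.9%), against 28.9% of all. The letters CTTTC, which can lie inside such a run, occurred within 25 bases of the start on the transcript strand in 27 (47.4%), against 6.39% of all. These are matches of letters in the annotated windows, not measured transcript starts.

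Obesity was first asked about without injections, as obese against lean rats. No ribosomal protein transcript passed the test, limma on log2(TPM + 0.1) with Benjamini-Hochberg adjustment over all genes tested and a threshold of 0.05. The share called among all 15176 genes tested was 0%. The study, with another test (DESeq2) on read counts, reported differentially expressed genes in both of its obesity comparisons. The 0% here and below therefore holds for limma on TPM only. The member ids leaned to one side nonetheless, 73 (96.1%) being higher with obesity and 3 lower, beside 55.7% higher over all genes. Their median log2 fold change was 0.09, beside 0.02 over all genes. Because the members rose and fell together from rat to rat, the count does not stand for separate results. The 42 60S ids had a median of 0.08 and the 28 40S ids 0.09. Before adjustment 11 ids (14.5%) had p below 0.05, all of them higher, beside 9.66% of all genes. In none of the 76 did the groups fail to overlap, which happened in 0.297% of genes in the higher and 0.244% in the lower direction.

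The smallest p was that of Rps21, a small protein of the 40S subunit. It had 507.5 TPM in the lowest lean rat, a median of 600.8 and 642.1 in the highest, and in the obese rats 624.4, 804.8 and 849.7. Obese rat 12, the lowest, lay inside the range of the lean rats, and the other 5 obese rats lay above all lean rats. The mean rose from 585.2 ± 55.8 to 769.3 ± 91.9 TPM (SD, n = 6 each), but with a log2 fold change of 0.39 (SE 0.09) the adjusted p in limma was 0.21. The exact two-sided permutation test gave p = 0.00649, where 0.00216 is the smallest this design allows. That p was not adjusted for the choice of Rps21 by its small p in limma. Next came Rps9, at 478.6 ± 23.8 and 539.4 ± 35.6 TPM (log2 fold change 0.17, SE 0.06, adjusted p = 0.33). Rps9, Rps18 and Rps23, the last a protein of the decoding centre, shared a log2 fold change of 0.17, with adjusted p-values in limma of 0.33 to 0.40 and overlapping groups. Rpl8 had the largest difference of any member, 137.5 ± 64.4 against 241.9 ± 66.1 TPM (SD, n = 6 each), a log2 fold change of 0.98 (SE 0.35, adjusted p = 0.38 in limma). Without lean rat 1 it was 0.66 and without lean rat 5 it was 0.84.

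Obesity with testosterone was then compared with the lean control rats. Again no member was called, beside 0% of the 15259 genes tested. The ids split almost evenly, 40 higher and 36 lower in the obese + TT rats, with a median log2 fold change of 0.02 beside 0.01 over all genes. Without Ttr the split was 33 higher and 43 lower. Before adjustment 9 ids (11.8%) had p below 0.05, beside 7.43% of all genes. The groups did not overlap for 5 ids that were higher (2.37% of all genes) and 1 that was lower (1.66% of all genes).

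The largest of these was 1 of the ids of Rps27a, ENSRNOG00000034246. Rps27a is made as a fusion of ubiquitin with a 40S protein and is cut after translation. The lean control rats had 84.0, 42.2, 39.8 and 76.6 TPM and the obese + TT rats 142.2, 120.7, 88.8 and 100.2 TPM. All obese + TT rats lay above all lean control rats, and the log2 fold change was 0.95 (SE 0.25, adjusted p = 0.51 in limma). The exact two-sided permutation test gave p = 0.0286, the smallest that 4 against 4 rats allow. Any id whose groups do not overlap has this p, and it was not adjusted for the choice of this id among the members. The other id of Rps27a, ENSRNOG00000004426, had 631.6 ± 66.3 and 674.8 ± 36.4 TPM (SD, n = 4 each), with overlapping groups.

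Rplp0, the base of the ribosomal stalk that recruits elongation factors, had 476.4, 443.2, 483.8 and 489.1 TPM in the lean control rats and 517.3, 566.8, 525.9 and 490.0 TPM in the obese + TT rats. The groups did not overlap, but the lowest obese + TT rat lay only just above the highest lean control rat (log2 fold change 0.15, SE 0.06, adjusted p = 0.65 in limma). Rpl3 and both ids of Rpl7a also had every obese + TT rat above every lean control rat, with log2 fold changes of 0.14 and 0.16. Rps28, which sits near the exit of the mRNA from the ribosome, was the one id that lay lower throughout, with 718.1, 787.3, 860.6 and 731.6 TPM in the lean control and 625.7, 703.6, 690.0 and 685.4 TPM in the obese + TT rats. Its log2 fold change was -0.19 (SE 0.07, adjusted p = 0.61 in limma).

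The obesity difference was not shown to depend on the cohort for any member. In one fit of all 20 libraries, the difference of both obesity contrasts was called for 0 of the 76 ids and for 0% of the 15406 genes tested. Before adjustment 10 ids (13.2%) had p below 0.05, beside 8.36% of all genes. Among the smallest p-values was that of Rps27a (ENSRNOG00000034246), with a difference of 0.95 (SE 0.25, adjusted p = 0.32 in limma). Rps21 had -0.55 (SE 0.16, adjusted p = 0.36 in limma), being higher in the obese rats of the first cohort and at 518.5 ± 42.9 and 469.7 ± 88.0 TPM in the lean control and obese + TT rats. Rpl35 and Rpl17, which line the exit of the peptide tunnel, had -0.31 (SE 0.10) and -0.27 (SE 0.10), with adjusted p-values of 0.42 and 0.49 in limma. The log2 fold changes of the 76 ids in both cohorts, which share no rats, had a Pearson r of -0.04 across ids, with 39 higher in both and 34 higher in the first and lower in the second.

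**Figure D3:**
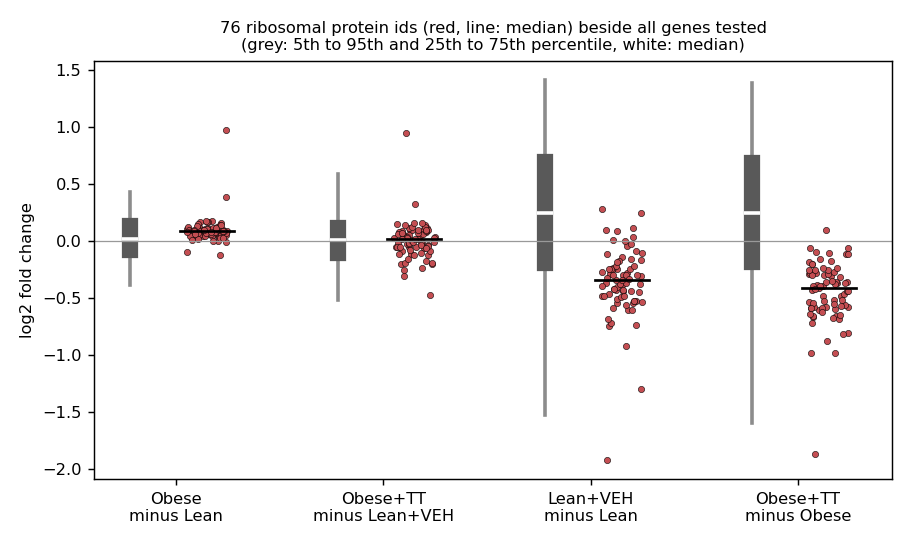
log2 fold changes of the 76 ids (red points, black line at the median) in 4 comparisons, beside the distribution over all genes tested (grey bars from the 25th to the 75th percentile, thin lines from the 5th to the 95th, white mark at the median). The members center near 0 in the obesity comparisons, with medians of 0.09 and 0.02, and lie below the bulk of genes in the cohort comparisons, with medians of -0.35 and -0.42 where all genes have 0.24 and 0.25.

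The large difference was between the cohorts. Ribosomal protein transcripts were lower in the injected rats in either genotype, while the median of all genes was higher on the TPM scale. Of the 76 ids, 57 fell and 1, Rps20, rose in the lean control rats compared with the lean rats. Over all 15326 genes tested 58.2% were called, 16.5% lower and 41.7% higher. In the obese + TT rats compared with the obese rats, 65 fell and none rose, where of all 15389 genes 58.1% were called, 16.4% lower and 41.7% higher. The median log2 fold change of the members was -0.35 in the lean and -0.42 in the obese animals, beside 0.24 and 0.25 over all genes, so the members lay 0.59 and 0.66 below the median gene. Among genes averaging 10 TPM or more, 17.6 and 17.3% were called lower. The groups did not overlap, with the injected rats lower, for 42 ids in the lean and 59 in the obese animals, beside 10.7 and 11.7% of all genes.

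The scaling of the libraries changed the size of the members' median and not its direction. The median of all genes turned with it, to -0.04 and -0.03 in the lean and obese animals with the median of ratios and to -0.0034 and -0.02 with FPKM. Without Ttr, with the median of ratios and from FPKM, 66, 71 and 71 ids fell in the lean and 73, 75 and 74 in the obese animals, with none that rose. More of all genes were called lower on these scales as well. In the lean animals it was 3406 of 15802, 4817 of 15317 and 4470 of 15408 genes, beside 2531 of 15326 on the TPM scale. In the obese animals it was 3667 of 15854, 4654 of 15362 and 4503 of 15468, beside 2523 of 15389. The share of higher genes among all called genes was 71.6% in the lean animals on the TPM scale and 62.6, 46.8 and 49.9% on the other scales. In the obese animals it was 71.8% and 58.6, 47.3 and 48.5%. The distance of the members from the median gene stayed between 0.59 and 0.60 in the lean and between 0.66 and 0.68 in the obese animals on all 4 scales. These scales differ by 1 factor per library, which moves nearly all genes alike. That distance could therefore hardly change, and its constancy is no check of the result.

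Of the 76 ids, 56 were called lower in both genotypes (73.7%), beside 12.7% of the 15031 genes tested in both. These comparisons share no rats, and their log2 fold changes had a Pearson r of 0.75 across the 76 ids and 0.87 across all genes. Ids are not independent of one another, and the r is a description. A further 9 ids fell in the obese animals with no call in the lean animals, among them Rps15a, Rps21, Rplp1 and Rpl8. Rps27l fell in the lean animals with no call in the obese ones. Another 9 were called in neither. The test of the difference between the genotypes is the one given above for the obesity contrasts, with no id called, so none of these ids was shown to respond differently in lean and obese animals. Each genotype's cohort comparison shares its uninjected rats with the first obesity comparison and its injected rats with the second.

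**Figure D4:**
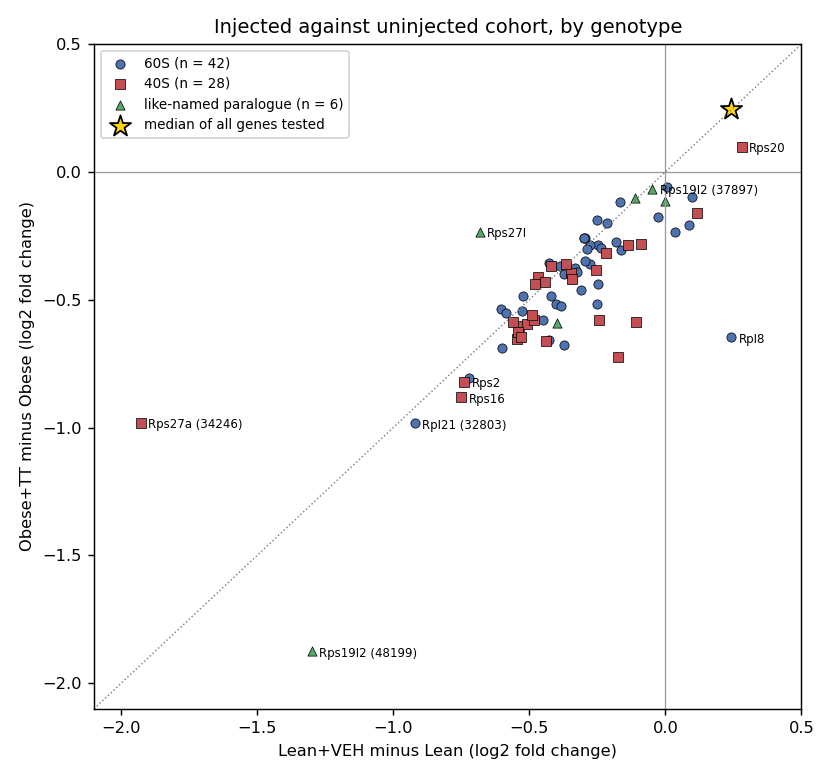
log2 fold change between the cohorts for each of the 76 ids in the lean animals (horizontal, Lean+VEH minus Lean) and in the obese animals (vertical, Obese+TT minus Obese); circles are 60S, squares 40S and triangles like-named paralogue ids, the star is the median of all genes tested, and the dotted line marks equal change. Most ids lie in the lower left quadrant, opposite to the star at 0.24 and 0.25, with 1 id each of Rps19l2 and Rps27a farthest out.

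Both subunits fell. Of the 42 60S ids, 33 fell in the lean and 37 in the obese animals, with medians of -0.30 and -0.37. Of the 28 40S ids, 21 fell in the lean and 26 in the obese animals, with medians of -0.44 and -0.57. The ratio of summed 60S to summed 40S TPM was 1.47 ± 0.01 in the lean and 1.45 ± 0.02 in the obese rats (SD, n = 6 each). It was 1.56 ± 0.03 in the lean control and 1.60 ± 0.04 in the obese + TT rats (SD, n = 4 each). The 12 uninjected rats ran from 1.43 to 1.48 and the 8 injected rats from 1.52 to 1.64, without overlap, and the ratio does not depend on the scaling of a library. The sums are weighted by the most abundant ids. Rpl41 and Rpl37, the highest of the 60S ids, were not called in either genotype on the TPM scale. How far these ids set the ratio was not tested.

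Rps16, a 40S protein whose tail reaches the P site, showed the largest fall among the most abundant members. It had 1388, 1626 and 1733 TPM in the lowest, median and highest lean rat, and 967.0, 934.8, 920.0 and 972.8 TPM in the lean control rats. The obese rats had 1550.3, 1700 and 1958 TPM, and the obese + TT rats 916.1, 1000.7, 992.2 and 864.4 TPM. Every injected rat lay below every uninjected rat. The log2 fold changes were -0.75 (SE 0.07, adjusted p = 3.12e-06) and -0.88 (SE 0.07, adjusted p = 2.89e-06) in limma.

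Rps2, at the entry of the mRNA channel, fell from 626.5 ± 47.1 to 374.6 ± 13.5 TPM in the lean and from 683.0 ± 41.5 to 387.7 ± 39.8 TPM in the obese animals. Its log2 fold changes were -0.74 and -0.82. Rpl13a, which can leave the 60S subunit to silence translation of inflammatory mRNAs, fell from 1237 ± 152 to 746.2 ± 26.9 and from 1383 ± 154 to 787.1 ± 47.7 TPM. Rps15 and Rps3, of the head of the 40S subunit, fell by 0.54 each on the log2 scale in the lean animals. In the obese animals Rps15 fell by 0.66 and Rps3 by 0.63. In all of these the injected and the uninjected groups of a genotype did not overlap.

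At the other end, several of the most abundant members had nearly the same level in all groups. Rpl41 had 4102 ± 359, 4285 ± 400, 4123 ± 418 and 4093 ± 141 TPM in the lean, obese, lean control and obese + TT rats (SD). Its log2 fold changes between the cohorts were 0.01 (SE 0.09) and -0.06 (SE 0.08) on the TPM scale, and -0.29 and -0.35 with the median of ratios. Rpl37 had 0.10 (SE 0.10) and -0.10 (SE 0.09) on the TPM scale, and -0.20 and -0.39 with the median of ratios. Rps28 had 0.12 (SE 0.08) and -0.16 (SE 0.09) on the TPM scale, and -0.18 and -0.45 with the median of ratios. The like-named paralogues Rpl22l1 and Rpl7l1, the latter a factor of 60S assembly, had differences between -0.12 and 0.00 on the TPM scale, with no call. Each of these values lay below the median of all genes on the TPM scale, 0.24 in the lean and 0.25 in the obese animals, but closer to it than the members' median.

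Rps20, a 40S protein that is ubiquitylated when ribosomes collide, was the member that rose on the TPM scale. The lean rats had 516.9, 578.4 and 672.4 TPM (lowest, median, highest), and the lean control rats 663.9, 732.5, 785.6 and 652.2 TPM. The groups overlapped, since lean rat 1 lay above 2 of the lean control rats. Its log2 fold change was 0.28 (SE 0.09, adjusted p = 0.0159 in limma), and the call was lost without lean control rat 15 (adjusted p = 0.056 in limma), without Ttr, with FPKM and with the median of ratios, where the value was -0.02. In the obese animals it was 0.10 (SE 0.08), with 526.7 to 710.2 TPM in the obese and 631.8 to 690.7 TPM in the obese + TT rats, and -0.19 with the median of ratios.

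Rps27l, the paralogue of Rps27 that p53 induces, was called in the lean animals, where Rps27 was not. Its levels were 221.6 ± 36.4 TPM in the lean (SD, n = 6) and 158.7, 98.7, 167.7 and 131.6 TPM in the lean control rats, a log2 fold change of -0.68 (SE 0.16, adjusted p = 0.00249 in limma). In the obese animals it had 204.7 ± 38.4 (SD, n = 6) and 122.7, 184.1, 195.5 and 195.4 TPM, with overlapping groups (log2 fold change -0.23, SE 0.16, adjusted p = 0.24 in limma). Rps27, the second most abundant member, had log2 fold changes of -0.09 (SE 0.11) and -0.28 (SE 0.08), the latter called at an adjusted p of 0.0102 in limma. Rpl35al1 fell in both, by 0.40 and 0.59 on the log2 scale.

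The 5 symbols Rpl21, Rpl7a, Rps10, Rps19l2 and Rps27a were each carried by 2 gene ids, and for these the split between ids has to be read with the level. Ribosomal protein genes have many processed copies in mammalian genomes. RefSeq lists at least 1 pseudogene named after 68 of the 71 symbols, with a median of 11 per symbol and 784 in all. How reads that match more than one copy were shared out is not visible in TPM. Both ids of Rpl7a had identical values in all 20 libraries, so they count as 1 measurement.

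Rps19l2, a paralogue of the 40S protein Rps19, had the lowest mean of both cohort log2 fold changes, through 1 of its ids. Its id ENSRNOG00000048199 had 731.6, 842.0 and 905.0 TPM in the lowest, median and highest lean rat and 358.6, 343.5, 291.0 and 339.1 TPM in the lean control rats. The obese rats had 788.7, 870.7 and 988.4 TPM and the obese + TT rats 147.6, 290.0, 207.7 and 362.6 TPM. It fell to 0.406 of its level in the lean and to 0.272 of its level in the obese animals, as fitted on the log2 scale, with adjusted p-values of 1.29e-07 and 1.07e-05 in limma. The other id, ENSRNOG00000037897, had 516.7 ± 55.6 TPM in the lean and 555.7 ± 78.0 TPM in the obese rats (SD, n = 6 each). It had 497.0, 544.8, 524.6 and 430.2 TPM in the lean control and 608.4, 544.1, 623.2 and 372.7 TPM in the obese + TT rats, overlapping with the uninjected rats. Its log2 fold changes were -0.05 (SE 0.09) and -0.07 (SE 0.15) on the TPM scale, with no call, and -0.35 in both genotypes with the median of ratios, called in each. In the obese + TT rats, rat 20 had the highest value of the first id (362.6 TPM) and the lowest of the second (372.7 TPM). The sum of both ids fell from 1337 ± 116 to 832.2 ± 51.4 TPM in the lean and from 1433 ± 123 to 789.1 ± 50.9 TPM in the obese animals. The second id took a median of 38.5% of that sum in the lean, 38.3% in the obese, 59.7% in the lean control and 70.1% in the obese + TT rats.

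Rps27a fell at both ids. The less abundant one, ENSRNOG00000034246, had 184.5, 228.7 and 249.4 TPM (lowest, median, highest) in the lean rats and 181.9, 222.3 and 250.02 TPM in the obese rats, and the values of the injected rats given above were all below these. It fell by 1.93 (SE 0.20) in the lean and by 0.98 (SE 0.12) in the obese animals on the log2 scale. Its share of the sum of both ids was a median of 19.8 and 19.5% in the uninjected and 8.68 and 14.0% in the injected lean and obese animals. The main id fell by 0.47 (SE 0.09) and 0.41 (SE 0.06). Rpl21 fell at both ids, by 0.60 and 0.92 on the log2 scale in the lean and by 0.69 and 0.98 in the obese animals, and Rps10 fell at both by 0.34 to 0.64. With the 10 ids of these symbols and the paralogues left out, 46 of the 62 others fell in the lean and 55 in the obese animals, with medians of -0.33 and -0.42.

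**Figure D5:**
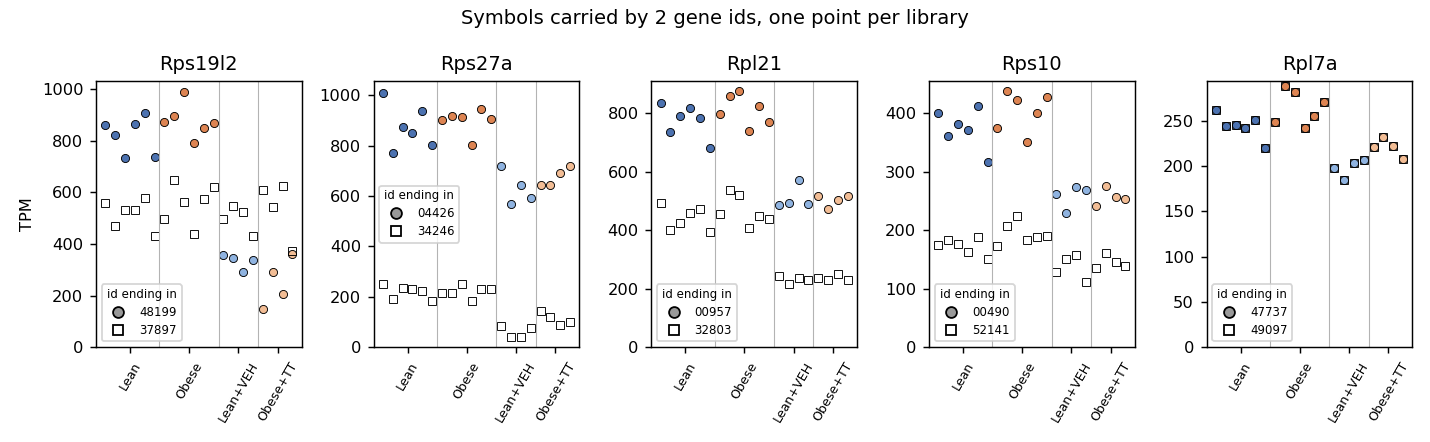
TPM of both ids of the 5 symbols carried by 2 ids (filled circles and open squares, named by the last 5 digits of the id) in each of the 20 libraries, ordered by group. The ids of Rps19l2 cross between the cohorts, as ENSRNOG00000048199 has 147.6 to 362.6 TPM and ENSRNOG00000037897 has 372.7 to 623.2 TPM in the injected rats, and both ids of Rpl7a coincide.

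The letters at the annotated start were also set beside the change between the cohorts. The pattern was again a C followed by at least 4 bases that were C or T. Among the single-id members with a RefSeq promoter, 18 had it exactly at the annotated start. Their median log2 fold change was -0.25 in the lean and -0.30 in the obese animals. The 34 without the pattern exactly there had -0.39 and -0.52. When the pattern could begin within 10 bases, the 38 with it had -0.30 and -0.44 and the 14 without it -0.33 and -0.33. Transcript starts were not measured, so members without the pattern were not shown to lack a TOP tract. No test was run on these medians.

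Other genes of the pathway were followed from lists. Of 20 other TOP mRNAs, such as elongation factors, 15 had a symbol. On the TPM scale 8 fell and 4 rose in the lean animals and 4 fell and 4 rose in the obese animals, with medians of -0.18 and -0.11. With the median of ratios 11 fell and none rose in each, with medians of -0.47 and -0.40. Tpt1, a growth-related TOP mRNA, fell by 0.39 and 0.43, and Eef1b2, an exchange factor of elongation factor 1, by 0.35 and 0.37 on the log2 scale. On the TPM scale Eef2, the translocation factor, rose by 0.24 and 0.41, and Eif4b, a helper of mRNA unwinding, by 0.37 and 0.42. With the median of ratios Eif4b had 0.07 and 0.13 and Eef2 had -0.06 and 0.12, so the direction of Eef2 in the lean animals depends on the scaling. None of the 15 was called in either obesity comparison or in their difference.

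Mitochondrial ribosomal proteins, which are nuclear-encoded and serve a separate ribosome, were also lower in the injected cohort. Of 36 with a symbol, 21 fell and 1 (Mrps33) rose in the lean animals and 25 fell in the obese animals, with a median of -0.31 in each. Mrps33 had 0.25 on the TPM scale and -0.05 with the median of ratios. Mrpl54 fell by 0.75 and 0.90, and Mrps18a by 0.69 and 0.59 on the log2 scale. Of 30 ribosome biogenesis genes only 3 had a symbol. Nop53, a factor of 60S maturation, fell by 0.40 and 0.25. Nop10 fell by 0.33 in the obese animals (-0.15 in the lean, no call), and nucleolin (Ncl) rose by 0.15 in the obese animals on the TPM scale and had -0.14 with the median of ratios. Of 20 genes of the mTORC1 and Myc control of ribosome synthesis 7 had a symbol. On the TPM scale the initiation scaffold Eif4g1 rose by 1.00 and 0.95, and its partner helicase Eif4a1 fell by 0.49 and 0.54. Cap-binding Eif4e had 0.09 and -0.01 on this scale, with no call. With the median of ratios Eif4e had -0.20 and -0.29. On that scale 5 of the 7 genes, Eif4e among them, were called lower and 1 higher in the lean animals. In the obese animals 3 of the 7 were called lower and 1 higher. Of the Myc partners and antagonists, Mxi1 fell by 0.20 in the lean animals. On the TPM scale Mxd4 rose by 0.43 and 0.26, and Max rose by 0.19 in the obese animals. With the median of ratios Mxd4 had 0.13 in the lean and -0.03 in the obese animals, and Max had -0.27 and -0.10. None of these 3 lists had a call in an obesity comparison.

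Markers of several cell types also differed between the cohorts, and their part in the ribosomal protein result was not tested. Of 10 listed endothelial and mural markers 3 had a symbol (Plvap, Rgs5 and Tagln), and all 3 fell in both genotypes. Their summed level was 179.4 to 230.0 TPM in the lean and 180.0 to 287.6 TPM in the obese rats, and 6.95 to 24.1 TPM in the lean control and 8.65 to 13.9 TPM in the obese + TT rats. Of 8 immune markers 2 had a symbol (Cd74 and Lyz2) and both fell. Of 6 stromal markers 3 had a symbol (Col1a1, Dcn and Pdgfra), of which 2 fell and 1 rose. Of 10 epithelial markers 8 rose in the lean animals, and in the obese animals 7 rose and Ttr fell. All of these kept their direction with the median of ratios. On that scale 6 epithelial markers were called higher and 1 lower in the lean animals, with the same numbers in the obese animals. Of 10 brain tissue markers 2 had a symbol, with 1 called lower in the lean animals. Of 8 erythroid markers 4 had a symbol and none was called on the TPM scale, while 2 were called lower in the lean animals with the median of ratios. No marker with a symbol was at 0 in all libraries of a group. Transcripts of the mitochondrial genome took 8.97% ± 0.35 and 8.18% ± 0.37 of TPM in the lean and obese rats (SD, n = 6 each), and 9.55% ± 0.56 and 10.6% ± 0.72 in the lean control and obese + TT rats (SD, n = 4 each). The mitochondrial shares of the lean and lean control rats overlapped. Those of the obese rats (7.76 to 8.67%) and the obese + TT rats (9.73 to 11.2%) did not.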

How the data were processed

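Per the labels and the study's methods, choroid plexus libraries (NEBNext Ultra) were sequenced as paired-end 150 bp reads with 12 Gb output and mapped by the authors with STAR 2.7.9a to Rnor_6.0. Their processing notes also name RSEM 1.3.3, and which program gave the TPM is not stated. The authors deposited TPM and FPKM for 32883 Ensembl ids per rat, with 1 table for each of 20 rats. Both units have depth divided out, so no counting interval can be given.

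TPM was analysed as log2(TPM + 0.1), which understates changes of low genes, for genes averaging 0.1 TPM or more among the fitted libraries. limma 3.58.1 in R 4.3.3 was run with a trend, on the groups compared only (all 20 libraries for the difference of the obesity contrasts), with Benjamini-Hochberg adjustment over all genes tested. It was tested on simulated data. Exact permutation tests (two-sided) were used for single members. Alternatives were a pseudocount of 1, other filters, eBayes without a trend or robust, a fit of all libraries, TPM without Ttr, a median of ratios, FPKM, members with 1 id, and each replicate left out. The rats are separate animals, and no pair of one group shared more than 0.46% of its values.

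The members and lists were chosen with earlier results of these data known. Members named were the 10 highest, in each test up to 10 called by smallest p (or the 5 smallest p where fewer than 5 were called), symbols with 2 ids, like-named paralogues, the 2 lowest, and Rps27a and the stalk proteins. Some members that this rule takes in are not reported here. Rps20, Rpl34 and Rpl3 were named after their values were seen, and genes of the other lists were picked as examples. Symbols came from the study's tables, whose comparison columns (fold changes and p-values) were not used. RefSeq sequences and pseudogenes are on GRCr8 and were matched by symbol. Figures were made with Python 3.11.15 and matplotlib 3.10.9.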

Additional observations from a re-analysis of the deposited data

Results flagged for a closer look

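In groups of 4 to 10 rats, a library was set apart when its gap to the nearest other value, as a share of the group's range, passed Dixon's 95% critical value. This was met in 7 of 164 groups tested, of which 6 are given, where chance alone gives about 1 in 20, or 8.2. Rplp1 was highest in lean control rat 15 at 2183.5 TPM, with the other 3 at 1737.3 to 1772 TPM. The same rat was highest for Rpl21 (ENSRNOG00000000957) at 570.2 TPM, beside 486.3 to 492.7 TPM. Obese rat 10 was lowest for Rps27a (ENSRNOG00000004426) at 803.9 TPM, beside 903.6 to 944.7 TPM. Lean rat 6 had the lowest ribosomal protein total and the highest Ttr share of the lean rats. It was lowest for Rps12 at 713.6 TPM, beside 831.4 to 883.3 TPM, and for Rplp0 at 504.4 TPM, beside 563.2 to 592.6 TPM. Rps27l was lowest in obese + TT rat 17 at 122.7 TPM, beside 184.1 to 195.5 TPM.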

How the results depend on the processing

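No member was called in either obesity comparison or in their difference under any alternative run. Between the cohorts 57 to 71 of the 76 members were called in the lean and 62 to 75 in the obese animals over the 9 settings that kept every rat, and 56 to 62 and 62 to 67 with each rat left out in turn. The counts over all genes on the other scales are given above. Of the 62 members with a 1-id symbol and no paralogue, 47 and 55 were called. The median log2 fold change of the members was -0.45, -0.64 and -0.60 in the lean and -0.57, -0.71 and -0.69 in the obese animals without Ttr, with the median of ratios and with FPKM. With each rat left out it ranged from -0.39 to -0.32 and from -0.44 to -0.39, and in the obesity comparisons from 0.05 to 0.12 and from -0.01 to 0.04. Ids of 1-id symbols without paralogues took 4.60, 4.89, 3.81 and 3.71% of TPM in the lean, obese, lean control and obese + TT rats. With each rat left out the totals were 5.06 to 5.26, 5.35 to 5.58, 4.04 to 4.24 and 4.03 to 4.11%. Among named members, 1080 values under alternatives kept direction and side of the threshold, 15 reversed, 11 came to pass the threshold and 3 no longer did, and the cause was not tested. The reversed ones were all between the cohorts. In the lean animals Rpl41 had -0.10, -0.29 and -0.25 and Rpl37 had -0.011, -0.20 and -0.16 without Ttr, with the median of ratios and with FPKM. With each rat left out Rpl41 ranged from -0.059 to 0.047, below 0 without lean rat 3 (-0.013), lean rat 6 (-0.034) or lean control rat 15, and Rps20 had -0.016 with the median of ratios. In the obese animals Rps20 had -0.057, -0.19 and -0.18 on the 3 scales. Rps19l2 (ENSRNOG00000037897) ranged from -0.099 to 0.022 in the lean animals, above 0 without lean control rat 16, and from -0.15 to 0.10 in the obese animals, above 0 without obese + TT rat 20. No paired analysis was possible because the groups share no replicate numbers. An unknown number of reads per value, 4 rats in each injected group and symbols for 2616 ids limit these results.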
